A study of Homo sapiens with 6 samples.

Results

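The genes described here are 10 chemokine genes of a tubular epithelial cell line: CCL20, CCL2, CCL5, CXCL1, CXCL2, CXCL3, CXCL5, CXCL8, CXCL16 and CX3CL1. They are 10 of the 38100 genes in the deposited tables, and all 10 had a row in both tables. The set was chosen from these samples for the difference of CCL20 between the groups, so every difference between the groups in a member is given as a description, with no p of its own, and the numbers of members past a threshold support nothing. The samples were HK2 cells, an immortalized line of human proximal tubular epithelial cells. AdCtrl cells carried a control adenovirus and AdSIRT4 cells an adenovirus for SIRT4, a sirtuin deacylase that is usually found in mitochondria. Both groups were stimulated with TGF-β1, a profibrotic cytokine, so cells without TGF-β1 or without a virus are not part of any comparison here. Each group had 3 samples, and the genotype label was WT in all 6. Every title names HK2, while the label for the cell line is numbered differently from sample to sample, and all were treated as HK2. For experiments in cells, the study's reporting form counts technical replicates, so the SDs and SEs given here may not hold the spread between separate cultures.

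Chemokines are small secreted proteins that bind G protein-coupled receptors and steer leukocytes along a concentration gradient. Injured tubular epithelium is a known source of them in the kidney. CXCL1, CXCL2, CXCL3, CXCL5 and CXCL8 carry a glutamate-leucine-arginine motif, act on CXCR1 or CXCR2 and attract neutrophils. CCL20 is the chemokine ligand of CCR6 on Th17 cells and immature dendritic cells. CCL2 attracts monocytes through CCR2, and CCL5 attracts T cells and monocytes. CXCL16 and CX3CL1 are made as transmembrane proteins, which hold cells that bear CXCR6 or CX3CR1 at the membrane and are released by metalloproteases.

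Many chemokine genes are switched on by NF-kB, which binds kappa B elements close to the start of transcription. RefSeq (GRCh38.p14) gave a promoter of 250 bases before to 50 bases after the start for 6 of the 10 members, and CCL2, CCL5, CXCL16 and CX3CL1 had no entry in the table used. Each promoter was searched on both strands for the kappa B consensus GGGRNNYYCC, for the AP-1 element TGANTCA and for the TATA box TATAAA. In these patterns R is A or G, Y is C or T and N is any base. A kappa B match lay in 5 of the 6 promoters, against 10.8% of all 27305 promoters. The same 10 bases, GGGAATTTCC, stood in CXCL1, CXCL2, CXCL3 and CXCL5, and on either strand in 44 of all promoters (0.161%). CXCL6, a neighbor on chromosome 4 that is not a member, held them as well. In the stretches that follow, which are given because they hold what the promoters share, capitals mark the kappa B match, and each is read 5′ to 3′ on the strand of its gene.
CXCL1: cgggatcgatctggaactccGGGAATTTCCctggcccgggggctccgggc
CXCL2: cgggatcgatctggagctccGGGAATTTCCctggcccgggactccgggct
CXCL3: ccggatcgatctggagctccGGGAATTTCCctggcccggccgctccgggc
CXCL5: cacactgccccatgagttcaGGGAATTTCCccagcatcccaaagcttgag
CXCL6: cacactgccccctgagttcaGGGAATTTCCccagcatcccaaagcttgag
CCL20: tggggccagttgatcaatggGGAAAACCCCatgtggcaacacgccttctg
The stretch of CXCL1 is chr4:73869294-73869343 on the plus strand, that of CXCL2 chr4:74099244-74099293 on the minus strand, that of CXCL3 chr4:74038739-74038788 on the minus strand and that of CXCL5 chr4:73998739-73998788 on the minus strand. The stretch of CXCL6 is chr4:73836568-73836617 and that of CCL20 chr2:227813743-227813792, both on the plus strand. All are upstream of the annotated start. The match began at -79 relative to the start in CXCL1, CXCL3 and CCL20, at -78 in CXCL2, at -91 in CXCL5 and at -90 in CXCL6. In CCL20 the consensus was met on the opposite strand.

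The promoter of CXCL8 held no match to the kappa B consensus as spelled for this search, which says nothing about binding of the factor. It held an AP-1 element at -137 to -131, which 7.76% of all promoters had, and a TATA box at -31 to -26, which 12% had. CCL20 held a TATA box at -29 to -24. The AP-1 element of CXCL8 is in capitals below because CXCL8 was the most abundant member. The stretch is chr4:73740412-73740458 on the plus strand.
CXCL8: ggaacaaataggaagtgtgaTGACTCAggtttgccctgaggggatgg
A match is a description of these letters and not a measured binding site.

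The 6 libraries held between 41537353 and 85684748 counts. A count of 0 allows up to 3 counts, or 0.035 to 0.0722 CPM (counts scaled to library size), which covers counting error only. This floor leaves out the TMM factors that the other CPM given here include. SIRT4 itself had 31, 47 and 57 counts in AdCtrl and 1996, 7995 and 6827 in AdSIRT4, higher in the samples labelled AdSIRT4. Of 7 epithelial markers, 6 had a mean of at least 1 FPKM (fragments scaled to transcript length and library depth), with KRT8 at 374 to 498 FPKM, whereas CDH1 reached only 0.155. Of 10 proximal tubule markers, 4 did, GGT1, PAX8 and CDH6 among them, while LRP2, CUBN, SLC22A6, AQP1 and ANPEP stayed below 0.1 FPKM and SLC34A1 reached 0.308. The 10 leukocyte markers summed to 1.68 to 1.76 FPKM in AdCtrl and 1.4 to 1.66 in AdSIRT4, most of it CD14, and CD3E, MS4A1, CD163 and S100A8 were at 0 counts in every sample. In bulk RNA, fewer cells of a kind and less RNA per cell cannot be told apart. AdSIRT4 replicate 1 stood apart from its group: its deviation from the group mean fell with transcript length (Spearman's rho of -0.583 over 17720 genes, against 0.496 and 0.514 in replicates 2 and 3), so short mRNAs were high in it. The lengths implied by counts and FPKM ran from 0.847 kb for CCL2 to 3.76 kb for CX3CL1 among the tested members. The difference of each tested member is therefore also given without this sample.

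Compared per length, the members spanned a wide range of levels. In AdCtrl, CXCL8 was highest at 345 ± 55.6 FPKM (SD, n = 3), followed by CXCL5 at 100.3 ± 17.1, CXCL2 at 39.1 ± 4.36, CX3CL1 at 30.4 ± 1.83 and CCL2 at 14.2 ± 1.75 FPKM. CXCL3 (4.43 ± 1.1 FPKM), CCL20 (3.97 ± 0.654 FPKM) and CXCL16 (2.9 ± 0.0651 FPKM) formed a lower tier, and CXCL1 and CCL5 were near 0. Only 2 pairs of neighbors in this order had sample ranges that overlapped, CXCL3 with CCL20 and CXCL1 with CCL5. In AdSIRT4, CXCL8 (514 ± 59.6 FPKM), CXCL5 (156 ± 10.01), CXCL2 (70.8 ± 14.6), CX3CL1 (26.1 ± 4.64) and CCL2 (15 ± 2.7 FPKM) kept their places. The order differed only within the overlapping pairs, with CCL20 (10.01 ± 1 FPKM) above CXCL3 (9.05 ± 1.72 FPKM) and CCL5 above CXCL1.

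The sum of the 10 members was 492, 494 and 634 FPKM in AdCtrl and 874, 716 and 820 FPKM in AdSIRT4. CXCL8 made up 62.7% to 64.9% of that sum in all 6 samples, and the ranges of the groups overlapped. CCL20 made up 0.654% to 0.859% in AdCtrl and 1.2% to 1.27% in AdSIRT4. CX3CL1 made up 5.13% to 6.08% in AdCtrl and 2.41% to 4.22% in AdSIRT4. There were 73 to 98 FPKM of CXCL8 for each FPKM of CCL20 in AdCtrl and 49.2 to 53.4 in AdSIRT4.

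**Figure D1:**
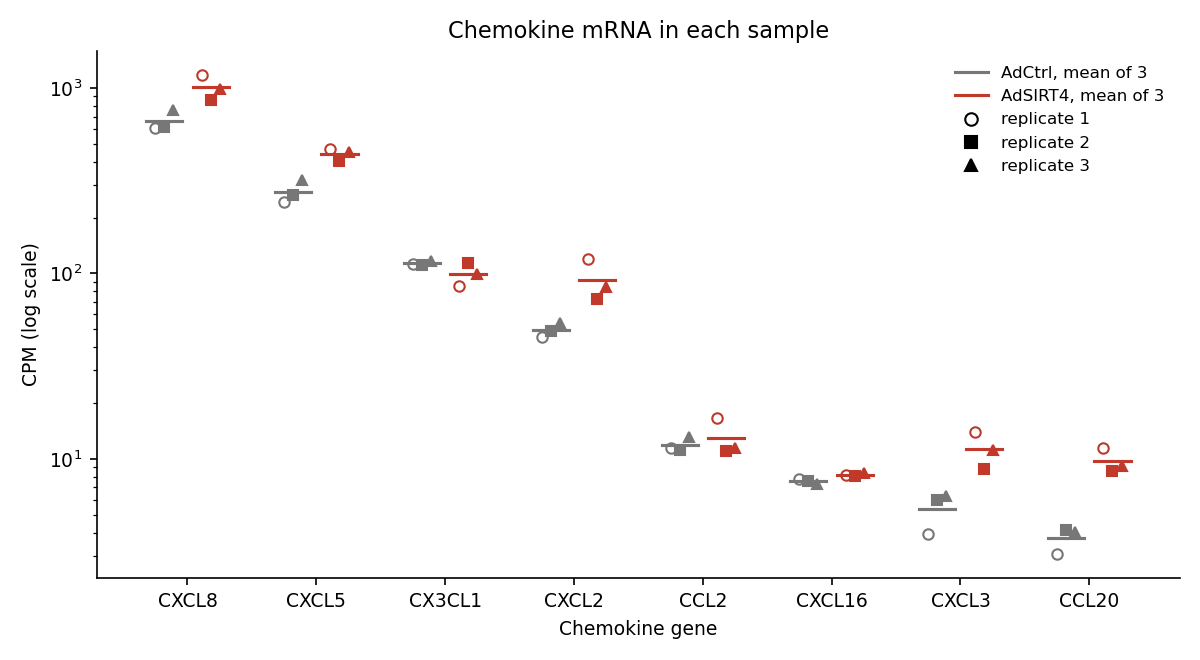
CPM (log scale) of the 8 members that passed the filter on low counts, for each of the 3 samples of AdCtrl (grey) and AdSIRT4 (red), with the group mean as a line. CCL20 lay between 3.07 and 4.14 CPM in AdCtrl and between 8.61 and 11.4 in AdSIRT4, whereas the groups overlapped for CCL2 and CX3CL1.

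CCL20 had the largest difference among the members, and this difference chose the set. The gene lies on chr2:227813842-227817556 (Entrez Gene 6364). It was counted 166, 176 and 208 times in AdCtrl and 443, 743 and 743 times in AdSIRT4. These counts correspond to 3.07, 4.14 and 4.05 CPM in AdCtrl and to 11.4, 8.61 and 9.14 CPM in AdSIRT4. The lowest AdSIRT4 sample was above the highest AdCtrl sample, and AdSIRT4 replicate 1 was the highest of all. The difference was 1.37 ± 0.175 on the log2 scale (SE, edgeR), a fold of 2.58, and 0.333% of the 17720 tested genes had a higher log2 fold change. It was 1.24 without AdSIRT4 replicate 1, so most of its size was present without that library. With the length trend removed and all 6 samples kept, it was 1.25.

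Of the 8 members that passed the filter, 7 had a log2 fold change above 0 and 1, CX3CL1, below 0. The median was 0.65, against 0.021 over all tested genes. With edgeR's quasi-likelihood test, 0 members passed an adjusted p of 0.05, as did 0.0113% of all tested genes, which is 2 genes. At an unadjusted p below 0.05, 5 members were counted, all higher in AdSIRT4, where 4.43% of all genes were higher and 3.5% lower. At an unadjusted p below 0.01 there were also 5, all higher, where 1.12% of all genes were higher and 0.784% lower. With DESeq2, 5 members passed an adjusted p of 0.05, all of them higher, where 126 of all genes (0.711%) were higher and 86 lower. Without AdSIRT4 replicate 1, edgeR also gave 5 members at an adjusted p of 0.05. In that fit 617 of 18287 genes (3.37%) passed as higher and 610 as lower. These numbers move with a single library. For 6 members the groups did not overlap, with AdSIRT4 higher, as for 9.64% of all tested genes, and for 0 members was AdSIRT4 lower without overlap, as for 9.78% of all genes. The members were chosen from this contrast, so nothing is read from these counts.

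The neutrophil-attracting CXC chemokines lie in a single cluster on chromosome 4, together with CXCL6, PF4, PF4V1 and PPBP. CXCL8 (chr4:73740569-73743716) was the most abundant of them. It had 608, 612 and 756 CPM in AdCtrl and 1178, 860.1 and 989.7 CPM in AdSIRT4. The groups did not overlap, but AdSIRT4 replicate 2 was closer to AdCtrl replicate 3 than to AdSIRT4 replicate 1. The log2 fold change was 0.62 ± 0.163, and 0.48 ± 0.101 without AdSIRT4 replicate 1.

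CXCL5 (chr4:73995642-73998677), which is also known as ENA-78, had 244, 265 and 319.5 CPM in AdCtrl and 468, 402 and 452 CPM in AdSIRT4. The groups did not overlap, and replicate 1 lay close to replicate 3 in AdSIRT4. The log2 fold change was 0.68 ± 0.137, and 0.63 ± 0.109 without AdSIRT4 replicate 1. Its implied mRNA length of 2.79 kb was the greatest among the neutrophil-attracting members.

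CXCL2 (chr4:74097040-74099195) and CXCL3 (chr4:74036589-74038689), close paralogs of CXCL1, showed larger differences at lower levels. CXCL2 had 45.3, 48.9 and 53.7 CPM in AdCtrl and 119, 73.1 and 84.5 CPM in AdSIRT4. Its groups did not overlap, and replicate 1 was far above the other AdSIRT4 samples. Its log2 fold change was 0.90 ± 0.186, and 0.67 ± 0.0783 without that sample.

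CXCL3 had 3.94, 5.98 and 6.27 CPM in AdCtrl and 14, 8.77 and 11.2 CPM in AdSIRT4. AdCtrl replicate 1 and AdSIRT4 replicate 1 were the extremes of the 6 samples. Its log2 fold change was 1.07 ± 0.238, the largest SE among the members, and 0.89 ± 0.187 without AdSIRT4 replicate 1.

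CXCL1 (chr4:73869393-73871308) was almost absent. It had 9, 0 and 2 counts in AdCtrl and 0, 7 and 6 in AdSIRT4, at or near the floor, so no fold is given. This stood beside 2078 to 6874 counts of CXCL2, whose promoter holds the same 10 bases as that of CXCL1. Reads that map to several paralogs could be assigned to any of them by the counting. Of the 50-base windows of the CXCL1 transcript, 5.73% were also found in CXCL2 and 0.573% in CXCL3, and 4.62% of those of CXCL2 were found in CXCL3. No window of 100 bases was shared between these genes, and none of either length between them and CXCL5, CXCL6 or CXCL8. Only identical windows in the longest transcript of each gene were counted. These shares therefore do not set how uncertain the split of reads between CXCL1, CXCL2 and CXCL3 is.

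The other genes of the cluster were low. CXCL6 had 3 to 25 counts and PPBP 3 to 28, and PF4 and PF4V1 had 0 in every sample. From CXCL8 outward, the distances were 96.1 kb to CXCL6, 113 kb to PF4V1, 129 kb to CXCL1, 240.2 kb to PF4, 246 kb to PPBP, 255 kb to CXCL5, 296 kb to CXCL3 and 356 kb to CXCL2. The 5 genes between CXCL8 and CXCL5 were thus nearly or entirely silent, and CXCL5, CXCL3 and CXCL2 followed as a run of expressed genes.

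**Figure D2:**
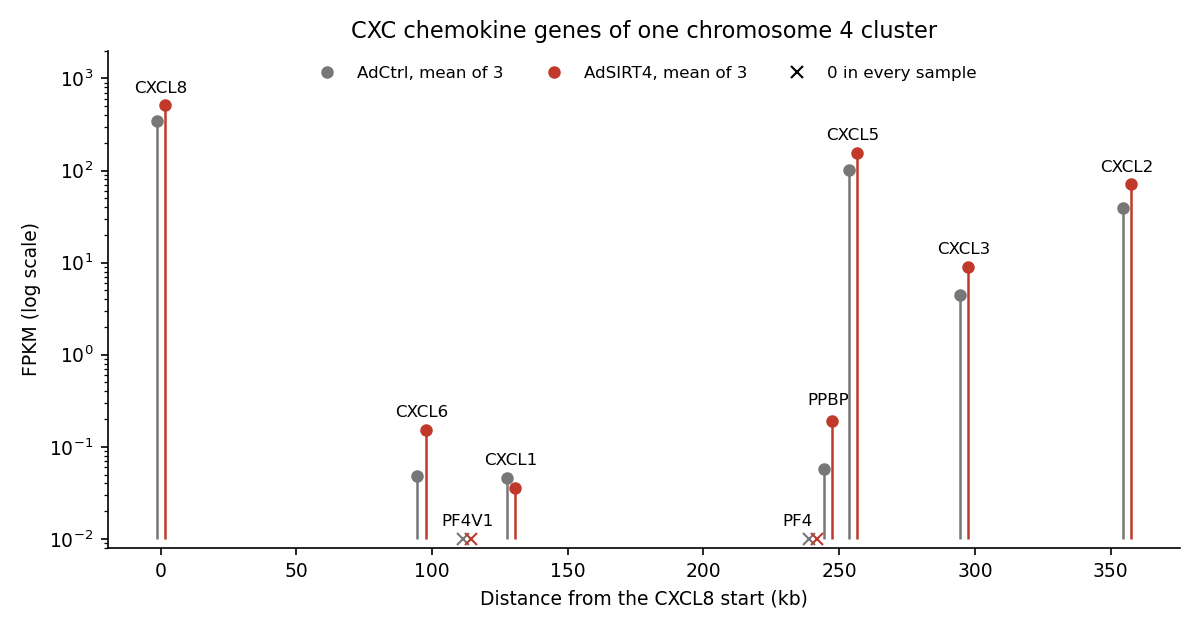
Mean FPKM (log scale) of the 9 CXC chemokine genes of the chromosome 4 cluster in AdCtrl (grey) and AdSIRT4 (red), placed by the distance of their lower coordinate from that of CXCL8 in kb; a cross marks a gene with 0 counts in every sample. CXCL8, CXCL5, CXCL2 and CXCL3 stand above 4 FPKM in both groups, whereas CXCL6, CXCL1 and PPBP stay below 0.2.

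For CCL2 and CCL5 the ranges of the groups overlapped. CCL2 (chr17:34255285-34257203), also called MCP-1, had 11.4, 11.2 and 13.1 CPM in AdCtrl and 16.5, 11 and 11.5 CPM in AdSIRT4. Only AdSIRT4 replicate 1 was above all AdCtrl samples, and replicate 2 was below them. The log2 fold change of 0.12 ± 0.177 became -0.089 ± 0.0924 without AdSIRT4 replicate 1 and -0.021 ± 0.111 with the length trend removed, so its direction depended on that library. CCL5 (chr17:35871491-35880360), also called RANTES, had 2, 4 and 2 counts in AdCtrl and 6, 10 and 6 in AdSIRT4. These libraries differ in depth, the CPM ranges overlapped, and no fold is given at this depth.

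The transmembrane chemokines had the smallest fold changes beside CCL2. CX3CL1 (chr16:57372490-57385044), or fractalkine, had 112, 111 and 117 CPM in AdCtrl and 85.1, 113 and 99.2 CPM in AdSIRT4. The groups overlapped through AdSIRT4 replicate 2, and AdSIRT4 replicate 1 was the lowest. Its log2 fold change was -0.19 ± 0.12, below 0 in all 16 alternative fits, and -0.10 ± 0.0629 without AdSIRT4 replicate 1.

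CXCL16 (chr17:4733533-4739928) had 7.75, 7.58 and 7.32 CPM in AdCtrl and 8.16, 8.07 and 8.39 CPM in AdSIRT4. The groups did not overlap, but the fold was 1.09, with a log2 fold change of 0.12 ± 0.101, and 0.12 ± 0.0949 without AdSIRT4 replicate 1. The coefficient of variation within the groups was 2.88% and 2.01%.

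**Figure D3:**
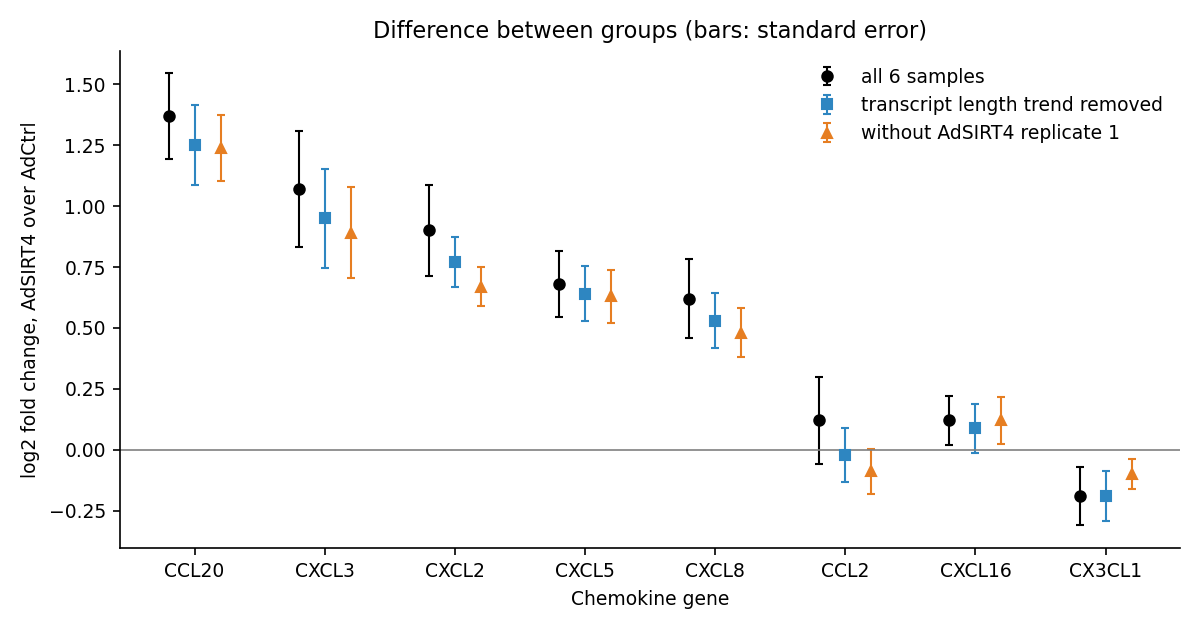
Log2 fold change of AdSIRT4 over AdCtrl with its standard error for the 8 members that passed the filter, from all 6 samples (black), with the transcript length trend removed (blue) and without AdSIRT4 replicate 1 (orange). CCL20 runs from 1.24 to 1.37 over these fits, CXCL2 from 0.67 to 0.90, and CCL2 crosses 0.

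In AdSIRT4 replicate 1, shorter members were mostly high and the longest was low. Relative to the mean of replicates 2 and 3 on the log2 CPM scale, this sample was higher by 0.59 for CXCL2, 0.55 for CCL2, 0.50 for CXCL3, 0.36 for CCL20, 0.35 for CXCL8 and 0.13 for CXCL5. It was lower for CXCL16 (-0.012) and for CX3CL1 (-0.31), whose implied length of 3.76 kb is the greatest of the members. For CXCL2 and CXCL8 these values were close to the median of tested genes with 0.8 to 1.25 times their length, which was 0.58 and 0.37. CCL20, with an implied length of 0.955 kb, lay below the corresponding median of 0.68, and 72.4% of such genes deviated further upward. The median log2 fold change between the groups was 0.17 over genes of the length of CCL20, 0.096 over those of CXCL8 and 0.0065 over those of CX3CL1. The part of the length trend in the differences was not tested beyond the fits with it removed. Within the groups, the SD of log2 CPM had a median of 0.152 in AdCtrl and 0.219 in AdSIRT4 over the tested members, against 0.0957 and 0.269 over all tested genes.

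**Figure D4:**
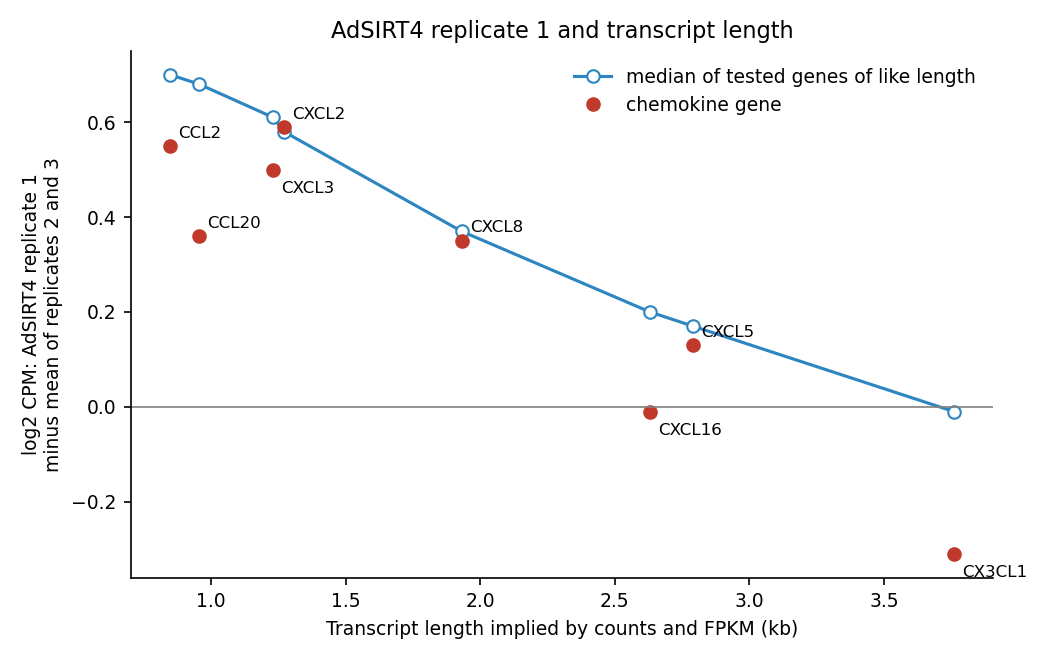
Log2 CPM of AdSIRT4 replicate 1 minus the mean of replicates 2 and 3 against the transcript length implied by the deposited counts and FPKM (kb), for the tested members (red) and, at the same lengths, for the median of all tested genes of like length (blue). The blue line falls from 0.70 at the length of CCL2 to -0.01 at that of CX3CL1, with CXCL2, CXCL8 and CXCL5 near the line and the others below it.

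Some members had nearly the same pattern over the 6 samples. Likeness was measured as the root mean square difference in log2 CPM after each gene's own mean was taken off, over 14100 genes with a mean of at least 1 CPM. All 6 points come from the libraries of the contrast that chose the set, so these values are a description. The closest of the 28 pairs of tested members was CXCL5 with CXCL8, at 0.0881, and the farthest was CCL20 with CX3CL1, at 0.832. The genes nearest to CCL20 were LOC124901411 (0.143), CLEC4E (0.156), DKK1 (0.175), CXCL3 (0.191) and CA9 (0.223). CLEC4E encodes the C-type lectin receptor Mincle, DKK1 a secreted Wnt antagonist and CA9 a carbonic anhydrase. Among the other members, CXCL2 came at rank 13, CXCL5 at rank 42 and CXCL8 at rank 68. The genes nearest to CXCL8 were LOC124903821 (0.0339), LCN2 (0.0469), ADGRV1 (0.0543), MAFF (0.064) and TRMT61A (0.0732), with CXCL5 at rank 8. LCN2 encodes neutrophil gelatinase-associated lipocalin, a marker of tubular injury, and MAFF a small Maf transcription factor. LCN2 had a mean of 363 CPM in AdCtrl and 561 in AdSIRT4.

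The remaining chemokines were mostly silent in these cells. Of 33 other chemokine genes, 17 had 0 counts in every sample and 2 passed the filter. CCL28, a mucosal epithelial chemokine for CCR10 and CCR3, had 37.4 ± 1.83 CPM in AdCtrl and 45.2 ± 1.28 CPM in AdSIRT4 (log2 fold change 0.27, edgeR adjusted p = 0.552). It passed without AdSIRT4 replicate 1 (edgeR adjusted p = 0.0382). PPBP, a platelet chemokine of the chromosome 4 cluster, had 0.0973 ± 0.0416 and 0.295 ± 0.0574 CPM (edgeR adjusted p = 0.494) on counts of 28 or fewer, and an edgeR adjusted p of 0.0958 without that sample. Neither passed the adjusted threshold in the fit of all 6 samples. Both were higher at an unadjusted edgeR p below 0.05, as were 4.43% of all tested genes.

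Several receptors for the members were at or near 0 in the cells themselves. CXCR1 had 0 counts in every sample, CXCR2 had at most 2, CCR2 and CX3CR1 at most 4, CXCR6 at most 10 and CCR6, the receptor for CCL20, at most 17. Of 23 chemokine receptor genes, 3 passed the filter (CCR10, CXCR5 and ACKR4) and 0 passed the test with edgeR or DESeq2 or an unadjusted p of 0.05. CCR10, the most abundant of these, had 1.39 ± 0.188 CPM in AdCtrl and 1.5 ± 0.758 CPM in AdSIRT4.

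Genes that act upstream of chemokine transcription were described from lists of their own. All 24 genes for NF-kB subunits, kinases and inhibitors were tested, 17 with a log2 fold change above 0 and 7 below, with a median of 0.069. None passed an adjusted p of 0.05 with edgeR in all 6 samples or with DESeq2. At an unadjusted edgeR p below 0.05 there were 2, where 4.43% of all tested genes were higher and 3.5% lower. NFKBIA, an inhibitor of NF-kB and itself a target gene, had 77.3, 88.1 and 84 CPM in AdCtrl and 138, 97.6 and 106 CPM in AdSIRT4 (edgeR adjusted p = 0.553). The groups did not overlap, and replicate 1 was again the highest. BIRC3, an antiapoptotic ubiquitin ligase, had 204 ± 18.8 and 161 ± 20 CPM (edgeR adjusted p = 0.612). BCL3, by structure an atypical member of the NF-kB inhibitor family, had 17.8 ± 1.77 and 15.2 ± 0.877 CPM (edgeR adjusted p = 0.677). Without AdSIRT4 replicate 1, NFKB1, RELA and NFKBIA passed with edgeR, all higher in AdSIRT4, and BIRC3 and BCL3 did not (edgeR adjusted p = 0.0725 and 0.0997). Of all 18287 genes in that fit, 617 passed as higher and 610 as lower.

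Of 30 genes for inducing cytokines and their receptors, 24 were tested, 16 above 0 and 8 below, with a median of 0.067. TNF, which induces many chemokines through NF-kB, had 31, 30 and 31 counts in AdCtrl and 51, 95 and 113 in AdSIRT4. This was 0.573, 0.706 and 0.603 CPM against 1.31, 1.1 and 1.39 CPM, and the groups did not overlap. The log2 fold change was 1.01 ± 0.219, with an edgeR adjusted p of 0.494 and a range of 0.0385 to 0.971 over the alternatives. It passed without AdSIRT4 replicate 1 (edgeR adjusted p = 0.0421) and with DESeq2. IL1B, another inducer, had 2.46 ± 0.227 CPM in AdCtrl and 2.51 ± 0.19 CPM in AdSIRT4 and was chosen for mention after its values were seen. TLR2 and IFNGR1, receptors for bacterial lipoproteins and for interferon-γ, had log2 fold changes of 0.25 and 0.24 (edgeR adjusted p = 0.612 for each, and 0.111 and 0.0658 without AdSIRT4 replicate 1).

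Chemokine mRNAs are short-lived, and 11 genes of their decay and stability were all tested, 5 above 0 and 6 below. ZFP36L1, a protein that binds AU-rich elements and promotes decay, had 879 ± 73.6 CPM in AdCtrl and 658 ± 16.1 CPM in AdSIRT4. Its log2 fold change was -0.42 ± 0.116, with no overlap between the groups and an edgeR adjusted p of 0.50 (0.00811 to 0.971 over the alternatives). It passed with DESeq2 and, without AdSIRT4 replicate 1, with edgeR (adjusted p = 0.00914). MAPKAPK2, a kinase that acts on decay factors, had 184 ± 5.53 and 225 ± 25.7 CPM, and ZC3H12A, the endonuclease Regnase-1, 71.9 ± 7.13 and 87.1 ± 13.4 CPM (edgeR adjusted p = 0.612 and 0.686). Without AdSIRT4 replicate 1, ZC3H12A (log2 fold change 0.39, edgeR adjusted p = 0.0179) and RC3H1, which encodes the decay factor Roquin-1 (0.35, edgeR adjusted p = 0.0116), passed as higher in AdSIRT4, and MAPKAPK2 did not (edgeR adjusted p = 0.0639).

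Of 15 genes for shedding, processing and surface binding of chemokines, 11 were tested, 3 above 0 and 8 below. SDC4, a heparan sulfate proteoglycan that binds chemokines, had 414 ± 27 CPM in AdCtrl and 566 ± 14.8 CPM in AdSIRT4. Its log2 fold change was 0.45 ± 0.106, and the edgeR adjusted p was 0.494 in all 6 samples and 0.00361 without AdSIRT4 replicate 1. MMP1, the interstitial collagenase, had 4.6 ± 0.574 and 7.73 ± 1.71 CPM (edgeR adjusted p = 0.494, and 0.0238 without that sample). SDC4 and MMP1 also passed with DESeq2, both higher in AdSIRT4. DPP4, a peptidase that trims chemokines, had 207 ± 19 and 160.2 ± 23.1 CPM (edgeR adjusted p = 0.612, and 0.0515 without that sample). ADAM10, the main sheddase of CXCL16 and CX3CL1, had 265 ± 7.25 CPM in AdCtrl and 233 ± 12.7 CPM in AdSIRT4 (log2 fold change -0.18, edgeR adjusted p = 0.696, and 0.116 without that sample). Its log2 fold change was 0.016 with the length trend removed, and ADAM10 is likewise named after its values were seen. Over all 6 lists, 75 of 136 genes were tested, and 0 passed with edgeR in all 6 samples. At an unadjusted edgeR p below 0.05 there were 12, and 4 passed with DESeq2. Over all 17720 tested genes, 4.43% were higher and 3.5% lower at that unadjusted p, 2 passed with edgeR and 212 with DESeq2. Without AdSIRT4 replicate 1, 9 of the 75 list genes passed with edgeR as higher and 1 as lower. Among all 18287 genes of that fit, 617 passed as higher and 610 as lower. The lists were chosen with earlier results of these data known, so nothing is read from their counts.

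**Figure D5:**
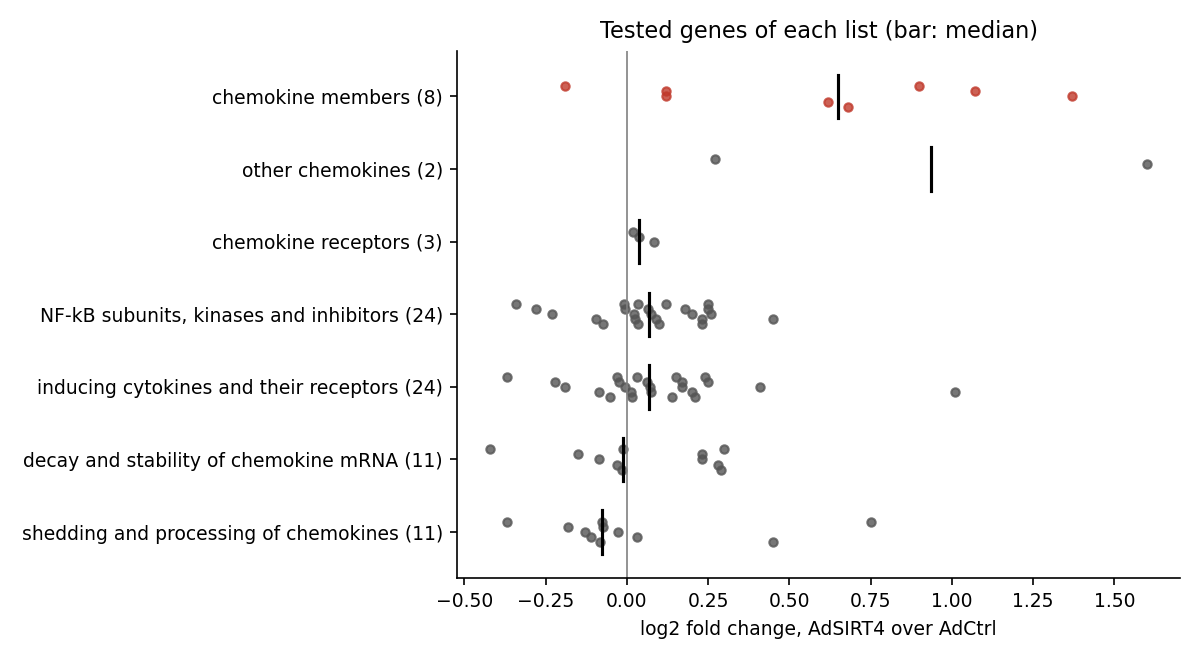
Log2 fold change of AdSIRT4 over AdCtrl for the tested members (red) and for the tested genes of each list (grey), with the number tested in parentheses and the median as a bar. The members have a median of 0.65, the list for NF-kB 0.069, the list for inducing cytokines 0.067, with TNF at 1.01 on its right, and the list for shedding -0.075.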

How the data were processed

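RNA-seq was available for 6 samples, 3 of AdCtrl and 3 of AdSIRT4, grouped by the sample titles. Counts for each gene, whole and not normalized, were deposited by the authors. A further deposited table was treated as FPKM, judged from its values since no source used here names the unit. The submitters' processing notes name fastp 0.21.0, HISAT2 2.1.0, StringTie 2.1.5, DESeq2 1.30.1 and the build hg38, and the gene annotation and the use of strand are not given in the sources used here. Column names were matched to the sample titles by group and replicate number, and 0 columns were left out. The members and the gene lists were chosen with earlier results of these data known. All 10 members are named, and from each list the genes with an adjusted p under 0.05 or, where there were none, up to 3 with the smallest p, beside those marked as chosen after their values were seen. NFKB1, RELA and RC3H1 fall outside this rule and were also chosen after their values were seen, because they passed without AdSIRT4 replicate 1. Receptors of the members and genes of the chromosome 4 cluster are named for that relation.

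Counts were filtered with filterByExpr at a minimum of 10, scaled with TMM and fitted over all genes with edgeR 4.0.16 (robust quasi-likelihood test) in R 4.3.3, with Benjamini-Hochberg adjustment at 0.05. CPM other than the floors are TMM-scaled, and errors are SD for levels and SE for log2 fold changes. DESeq2 1.42.0 and limma 3.58.1 on log2(FPKM + 1) were alternatives. The limma fold changes on this scale understate the change of low genes. The transcript length was taken from the ratio of counts to FPKM, and its trend was removed with offsets per sample. For likeness and deviations, log2 values were taken of CPM + 0.01. The scripts were tested on simulated data. Deviations from the group means correlated at 0.178, 0.159 and 0.176 between samples with the same replicate number and at -0.188 to 0.0298 between others. The labels state no pairing, and this check cannot settle one. The length trend had the same sign in AdCtrl 1 and AdSIRT4 1 (-0.176 and -0.583) and in AdCtrl 3 and AdSIRT4 3 (0.171 and 0.514). Its signs were opposite in AdCtrl 2 and AdSIRT4 2 (-0.0224 and 0.496). The main fit, with its SEs and p, treated the samples as unpaired, and a replicate block was an alternative. Promoters and gene coordinates came from RefSeq (GRCh38.p14). Python 3.11.15 (pandas 2.3.3, numpy 2.4.6, matplotlib 3.10.9) was used for tables and figures. Total counts ranged from 41537353 to 85684748, and floors cover counting error only. Some single genes of the marker and receptor lists are not reported here.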

Additional observations from a re-analysis of the deposited data

How the results depend on the processing

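Of the 128 log2 fold changes of the 8 tested members under 16 alternatives, 124 moved by less than the SD within groups. The other 4 all belonged to CXCL16, which ran from 0.064 to 0.14. That SD includes the library left out, so leaving out a sample can hardly move a value further. The count of 124 is therefore no measure of stability, and it includes values of CCL2 that changed sign. CCL20 ran from 1.15 to 1.45 and CCL2 from -0.089 to 0.23, and the median over members from 0.55 to 0.76 when each sample in turn was left out. Against 2 genes called over all tested, DESeq2 called 212, all genes with a count 5, a minimum of 10 counts in every sample 4, limma 0 on log2(FPKM + 1), 1 on log2(FPKM + 0.1) and 5 at a mean of at least 1 FPKM, and the fit with the length trend removed 12. The replicate block gave 1, changed no call of a member or a list gene (0 in each) and left the median over members at 0.65. Together with the removed length trend it gave 3. Leaving out each sample in turn gave 0 to 1227 genes, 0 to 5 members and 0 to 10 list genes, and the highest of each came without AdSIRT4 replicate 1. DESeq2 called 5 members and 4 list genes against 0 each. In the order of levels, FPKM recomputed from counts and length kept 8 of 9 places and medians over samples 8 of 10. CXCL1 and CCL5 were too low for a comparison at this depth.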
